A study of Arabidopsis thaliana with 18 samples.

Results

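A group of 120 probe sets had its highest levels on the same 3 of 18 arrays of Arabidopsis thaliana plants of the Est strain. The 3 arrays are the silwet arrays with the running numbers 40 and 43 in their titles and the SA array with the number 52. A probe set is the group of short probes by which the ATH1 array measures a transcript. Members were chosen by their measured levels on all 18 arrays: a probe set entered when the lowest of the 3 levels lay above the highest of the other 15 and the mean of the 3 was at least 1 above the mean of the 15, on the scale log2(signal + 16). Of 22746 probe sets other than controls, 124 met these values, which is 0.545%, and 4 of the 124 were set aside by name and are not described here. The difference between the 3 arrays and the other 15 therefore chose the members, and it is described below without a test.

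The study hybridised total RNA of Est plants after 1 of 2 treatments. The 9 silwet arrays, numbered 37 to 45, come from plants given 0.02% silwet, a surfactant that spreads a solution over leaves. The 9 SA arrays, numbered 46 to 54, come from plants given SA (salicylic acid, a hormone of plant defence) at 0.3 mM in that surfactant, again at 0.02%, so silwet is common to both groups. Each treatment holds 3 successive runs of 3 title numbers, and each run carries the replicate numbers 1, 2 and 3. The labels do not say what sets the runs apart, nor the tissue or age of the plants. They also do not state that replicate arrays hold different plants. All p-values below therefore describe the scatter among these arrays, which may be technical.

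Late embryogenesis abundant proteins are small, very hydrophilic proteins that accumulate in drying seeds and in leaves short of water, where they protect membranes and proteins. Proteins of the lipid transfer family are small, cysteine-rich and mostly secreted, carry lipids in a hydrophobic pocket, and take part in building the cuticle and in stress responses. Abscisic acid is the hormone that rises when plants lose water. It closes stomata and switches on many late embryogenesis abundant and lipid transfer genes.

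The 3 arrays stood close to the others in overall measures. Median signal lay between 29.9 and 35.4 on them and between 27.4 and 35.7 on the other 15, and the log2 ratio of the 3′ to the 5′ control probes lay between 0.14 and 0.54 for GAPDH, within −0.30 to 0.87 on the other 15. For actin the same ratio lay between 1.88 and 2.54 against 1.10 to 2.68, and for ubiquitin between 1.67 and 2.11 against 1.27 to 2.30. All 3 arrays carry replicate number 1 and the 3 lowest of the numeric codes in the titles, whose meaning the labels leave unstated. The photosynthesis gene RCA, which encodes Rubisco activase, had a mean level of 11.12 on the 3 arrays and 11.60 on the others, and EXPA18, an expansin of root hairs, 4.85 and 4.66. The summed signal of 4 guard cell and epidermis markers was 101 to 148 on the 3 arrays and 198 to 318 on the other 15, without overlap. That gap came from 1 of the 4, AT1G22690, with a mean level of 6.47 against 7.72, while FMA, MUTE and SPCH, which act in stomatal development, overlapped between the 3 arrays and the others. The part of the title code and of AT1G22690 in the members' levels was not tested, and replicate number 1 is compared on other arrays further on. All arrays of number 1 have lower codes than those of numbers 2 and 3, so that comparison cannot tell replicate number from a low code. In bulk RNA, more cells of a type and more RNA per cell cannot be told apart.

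Across the 120 members the median difference was 1.26 on the log2(signal + 16) scale, or 2.40-fold, and the differences ran from 1.0 to 4.06, or 16.7-fold. Over all 17059 probe sets that passed a filter on low signal the median difference was 0.00. All 120 members passed that filter, and 117 would pass on the mean of the 15 arrays alone. In 18 members the difference was at least 2, in 8 at least 3 and in 81 under 1.5, so most members lay near the lower limit of the rule. The distance from the lowest of the 3 levels to the highest of the 15 had a median of 0.39 and was at least 1 in 15 members. The members' mean over the 15 arrays had a median of 6.29, as over all tested probe sets, and ran from 4.33 to 10.33. Their standard deviation over the 15 arrays had a median of 0.41, against 0.25 over all tested probe sets.

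**Figure D1:**
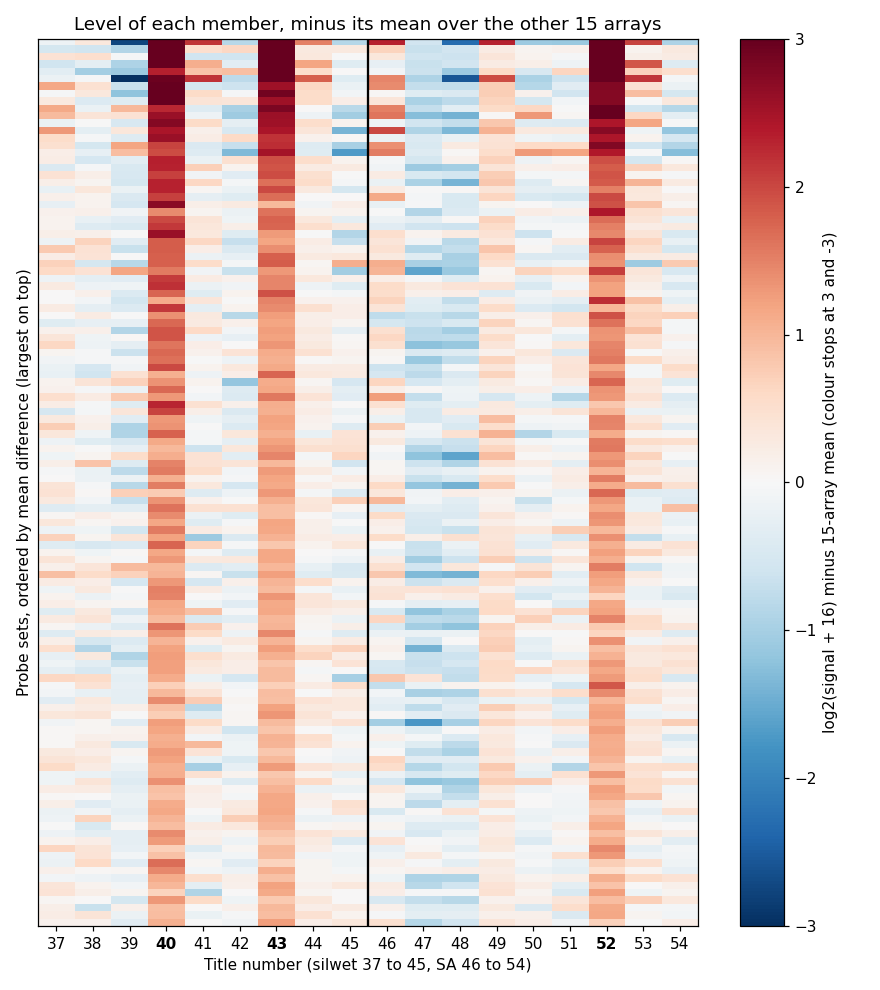
Level of each of the 120 members (rows, ordered by mean difference) on the 18 arrays (columns, by title number), as log2(signal + 16) minus the member's mean over the 15 arrays other than 40, 43 and 52. The 3 columns in bold are high in every row because the rule chose the rows that way, and among the others the columns 47 and 48 are mostly low, with medians of −0.51 and −0.45.

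The platform annotation gave 1 gene to 65 of the members, several genes to 3 and none to 52. The 65 genes are 65 different loci, of which 20 lie on chromosome 1 (30.8%, against 25.7% of all named loci), 8 on chromosome 2 (12.3%, 16.3%), 13 on chromosome 3 (20%, 20.5%), 13 on chromosome 4 (20%, 14.6%) and 11 on chromosome 5 (16.9%, 22.4%). Members with 1 gene had a median difference of 1.20 and unnamed members one of 1.41. The 2 largest differences belonged to probe sets that the annotation used here does not name, so their roles are not described.

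The group held 3 late embryogenesis abundant genes, with differences of 1.39, 1.40 and 3.27. AT3G02480 had levels of 7.47, 8.73 and 9.03 on arrays 40, 43 and 52, and the other 15 ran from 4.06 over a median of 5.15 to 6.04. A signal of 0 is 4 on this scale, so its lowest arrays were close to no signal, and the difference of 3.27, 9.62-fold, understates the ratio of the signals. DI21, first described as drought-induced, had 6.30, 5.74 and 5.93 on the 3 arrays and 4.19, 4.59 and 4.85 as the lowest, median and highest of the 15. LEA4-5 had 6.67 on array 40 but 5.48 and 5.19 on arrays 43 and 52, against 4.03 to 4.86 on the 15 with a median of 4.40. In all 3 genes the lowest of arrays 40, 43 and 52 lay above the other 15 by at least 0.33.

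The 5 members of the lipid transfer family had a median difference of 2.57 and a range of 1.60 to 3.44. They were gathered from genes that the rule chose for this difference, and the 8 tested loci of a list of known lipid transfer genes had a median of −0.01. AT2G37870 had levels of 9.68, 8.91 and 9.34 on arrays 40, 43 and 52, and the 15 ran from 4.95 over 5.57 to 7.73, a difference of 3.44 or 10.9-fold. AT3G53980 had 9.52, 8.88 and 8.72, against 4.76, 5.95 and 6.90 as the lowest, median and highest of the 15. AT4G33550 had 8.11, 7.89 and 7.77, against 4.63, 5.21 and 6.53. For these 3 genes the 3 arrays lay at least 1.18 above the next array, which was number 53 in each. AT1G62510 had 7.08, 7.30 and 8.10 on the 3 arrays and 4.78, 5.75 and 6.15 on the 15, and here array 52 was the highest, not array 40. AT1G48750 had the smallest distance of the 5, with 7.76, 8.13 and 8.84 against a highest other array of 7.52.

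Regulators of hormone and stress responses formed 8 members, with a median difference of 1.29 and a range of 1.01 to 2.0. XERICO, a small RING-H2 protein that raises abscisic acid levels when overproduced, had levels of 9.53, 9.23 and 9.37 on arrays 40, 43 and 52, and 6.68, 7.97 and 8.52 as the lowest, median and highest of the 15. Its difference was 1.46, and array 37 came next after the 3. AT1G01250, a transcription factor of the AP2/ERF family, had 7.46, 7.04 and 6.97, against 4.07, 5.31 and 5.88 on the 15. AT3G13672, a relative of the SINA ubiquitin ligases, had 7.11, 6.72 and 6.51, against 4.37, 5.09 and 5.53. The phosphoinositide phospholipase C gene AT3G55940, which acts in lipid signalling, had 7.22, 6.54 and 6.64, against 4.55, 5.37 and 5.94. The other members here had differences close to the limit: the cold-regulated AT4G33980 with 1.11, the kinase WNK9 with 1.08, the lectin EULS3 with 1.05, and AT2G16365, a partner of phytochrome B, with 1.01. WNK9 had nearly the same level on all 3 arrays, 6.04, 6.01 and 6.06.

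Carbohydrate and transport genes gave 6 members with a median difference of 1.61. AT2G41190, of an amino acid transporter family, had levels of 9.44, 8.56 and 8.76 on arrays 40, 43 and 52, against 5.07, 6.20 and 6.68 as the lowest, median and highest of the 15. APL4 and APL3, both large subunits of the enzyme that makes ADP-glucose for starch, were both members. APL4 had 7.24, 7.14 and 7.08, against 4.63, 5.14 and 5.91, and APL3 had 6.72, 6.71 and 6.73, against 5.19, 5.54 and 6.15. The differences of these 2 subunits were 1.97 and 1.16. The sugar transporter SWEET4 had 9.29 on array 40 and 7.97 and 8.14 on arrays 43 and 52, against 5.82, 6.80 and 7.20 on the 15. The cation efflux family gene AT1G79520 and the glucosyltransferase UGT85A5 had differences of 1.45 and 1.19.

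Cell wall genes gave 4 members with differences of 1.04 to 1.81. EXLB1, an expansin-like protein of the cell wall, had levels of 8.0, 7.77 and 7.68 on the 3 arrays and 5.68, 5.89 and 6.69 as the lowest, median and highest of the 15. The other 3 were the glycine-rich protein AT4G30460 with a difference of 1.37, the pectin acetylesterase AT1G57590 with 1.12 and AT4G18280, related to glycine-rich wall proteins, with 1.04.

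The remaining 39 members with 1 gene had a median difference of 1.12 and served varied functions. AT3G28270, related to the protein At14a, had the largest difference of all named members, 3.70 or 13.0-fold. It had levels of 8.22, 7.74 and 9.05 on arrays 40, 43 and 52, while the 15 ran from 4.03 over 4.75 to 5.13. AT3G28220, with a TRAF-like domain, had 9.72, 9.71 and 10.51, against 5.72, 7.16 and 8.74. These 2 loci lie near each other on chromosome 3, with 4 protein-coding genes between them in the TAIR10.1 annotation. AT1G16850, a protein of unknown function, had 9.37, 8.03 and 8.27, against 4.63, 5.28 and 6.91. AT5G15190 had 8.44, 6.72 and 7.65, and its array 43 lay only 0.15 above array 53 with 6.57. The major latex-like protein AT4G23670 had 10.45, 10.50 and 10.87 against 8.65, 9.26 and 9.87. AT5G61290, of the flavin monooxygenase family, and AT1G27200 had differences of 1.44 and 1.34. Others in this group were NAI2, a protein of endoplasmic reticulum bodies, with 1.26, the calmodulin-binding protein relative AT2G38800 with 1.21, the actin-binding NET1B with 1.0, and the MADS box factor AGL80 with 1.04. AGL80 is known from the central cell of the female gametophyte, and had levels of 5.20, 5.28 and 5.62 on the 3 arrays against 4.17, 4.24 and 4.81 on the 15. Its mean over the 15 arrays, 4.33, was the lowest of all members and close to no signal. On the mean of those 15 arrays it would have failed the filter on low signal.

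**Figure D2:**
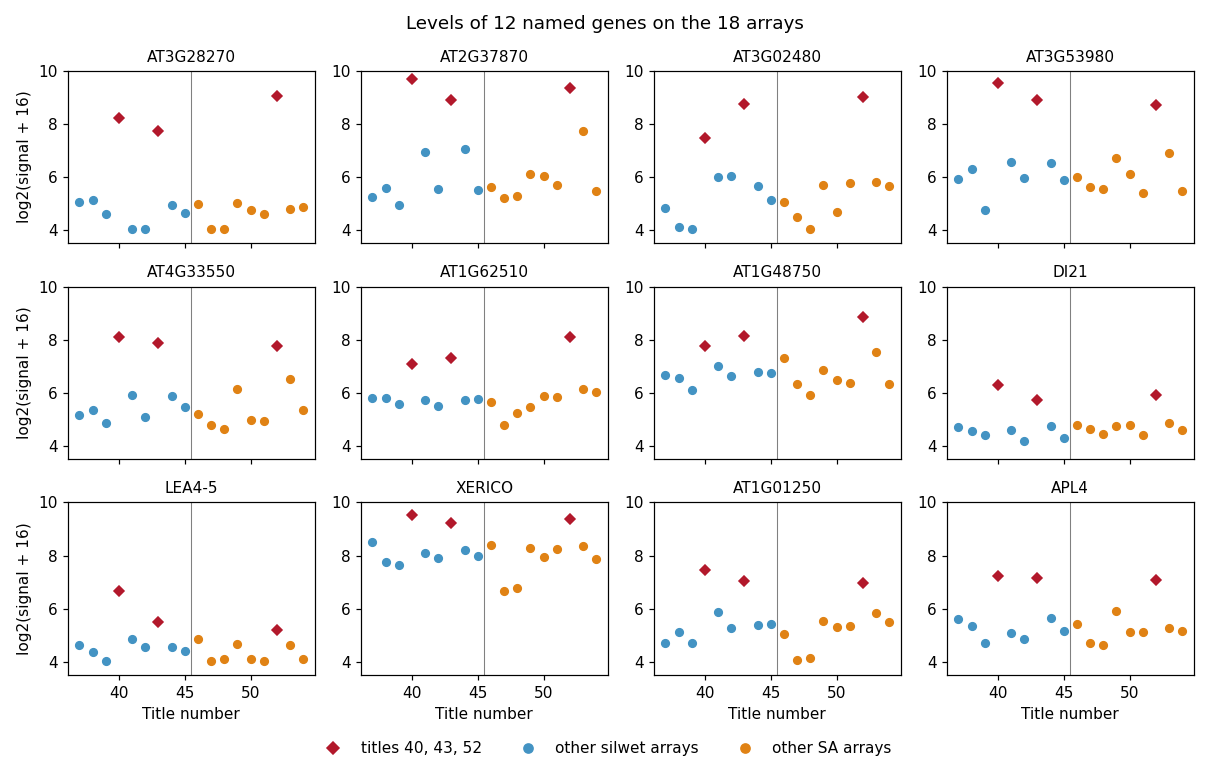
Levels of 12 named members on the 18 arrays, as log2(signal + 16) against the title number. Red diamonds are arrays 40, 43 and 52, blue circles the other silwet arrays and orange circles the other SA arrays, with 1 point per array. AT2G37870 shows array 53 at 7.73, nearest to the 3, while AT3G28270 has all 15 other arrays at 5.13 or below.

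Among unnamed members, 247718_at had the largest difference, 4.06, with levels of 10.45, 11.01 and 11.24 on arrays 40, 43 and 52. Its other 15 arrays were widely spread, from 4.09 over a median of 6.28 to 9.16, with a standard deviation of 1.68. By contrast 247095_at had 9.96, 10.49 and 10.42 on the 3 arrays and 5.41, 6.42 and 6.97 on the 15, so its distance of 2.99 to the next array was the widest of all members. 247717_at had 11.57, 11.87 and 11.68, against 5.55, 8.45 and 10.78. Probe sets 259609_at, 265058_s_at, 266462_at and 259383_at followed with differences of 2.86, 2.54, 2.39 and 2.34.

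The members closest to the limit of 1 from inside were 245748_at, NET1B and AT3G27210, with differences of 1.0 each. Just outside lay AT4G23880 and AT5G42200 with 0.998 and 0.992 and 264300_at with 0.990. On the other condition, AT5G50360, 260134_at and NAI2 were members by distances of 0.01, 0.02 and 0.03 between the lowest of the 3 arrays and the highest of the 15. AT1G73040 had a difference of 1.69 but was left out, since its lowest level among the 3 stood at a distance of −0.005 from the highest other array. At any size of difference, 647 of the 17059 tested probe sets (3.79%) had the 3 arrays above all 15.

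The 3 arrays were not equal in the members. Array 40 was the highest in 59 members, array 52 in 43 and array 43 in 18. The median deviation of the members from their 15-array mean was 1.41 on array 40, 1.31 on array 52 and 1.18 on array 43. On the other 15 arrays this median ran from −0.51 on array 47 to 0.41 on array 49, while the median over all tested probe sets stayed between −0.06 and 0.06 on every array. After array 49, arrays 53 and 44 had medians of 0.29 and 0.19, and the lowest, arrays 47, 48 and 39, had −0.51, −0.45 and −0.26. The members therefore shared highs and lows on arrays other than the 3, which the rule only caps at the lowest of the 3. The array next in level after the 3 was number 49 in 29 members, number 46 in 21 and number 53 in 19. Such counts were not made over all probe sets.

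**Figure D3:**
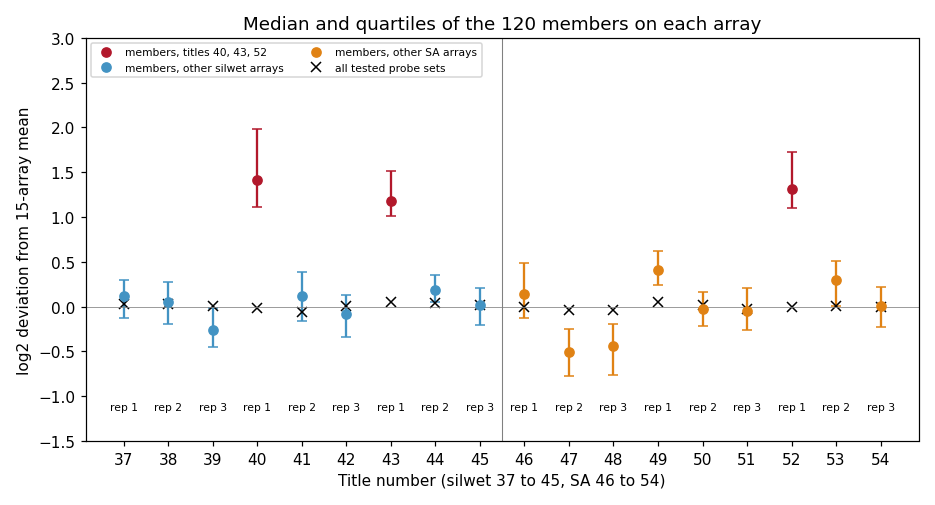
Median (circle) and quartiles (bars) over the 120 members of the log2 deviation from the 15-array mean, by title number, with the median over all tested probe sets as crosses. Arrays 40, 43 and 52 lie at 1.41, 1.18 and 1.31, arrays 47 and 48 lie lowest at −0.51 and −0.45, and the crosses stay between −0.06 and 0.06.

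Over the 15 arrays the Pearson correlation between pairs of members had a median of 0.34 and quartiles of 0.08 and 0.55, against a median of 0.02 over pairs of all tested probe sets. This is a description over 15 arrays that share title runs, treatments and replicate numbers. AT1G01240, with a difference of 1.14, and AT1G01250 are direct neighbours on chromosome 1, and their correlation over the 15 arrays was 0.43.

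Other genes of the same functions were followed through lists of known genes. Of 43 late embryogenesis abundant loci, 24 had a probe set with 1 gene and 9 were tested. Of the 9, 3 were members, as were 120 of all 17059 tested probe sets. LEA4-5 is among the 9 through the arrays on which it was high, since on the mean of the 15 arrays it would have failed the filter. A further pair, AT1G54410 and AT2G44060, had the 3 arrays above all 15, as did 3.79% of all tested probe sets, by mean differences of 0.51 and 0.48, at levels of 11.17 and 9.91 on the 3 arrays. The 9 had a median difference of 0.51 and a range of −0.26 to 3.27. The remaining 15 of the 24 gave too little signal for the filter. Among them AT3G17520 had a difference of 0.91 at a mean of 5.15 on the 3 arrays. Of 32 lipid transfer loci 8 were tested, and their differences ran from −1.41 to 1.82, with AT1G62510 the only member. The other 4 lipid transfer family members were not on this list. Unnamed members could not be matched to any list, so the list counts may miss some of them.

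Genes of the abscisic acid lists could hardly be read. Of 40 abscisic acid and drought response loci 1 was named and tested, PUB19, an E3 ligase of drought signalling, with a difference of 0.95 that did not clear all 15 arrays. Of 43 loci of abscisic acid synthesis, breakdown and core signalling, 1 was tested, AT4G15260, with 0.15. The wax ester synthase WSD1 was the only tested gene of 24 cuticle loci, with 0.81. Of 15 sugar starvation loci 3 were tested, and 2 of them, AT1G62510 and EULS3, were members. Of the 5 tested senescence genes none was a member, with a median of 0.22, and the 5 photosynthesis genes had differences of −0.48 to 0.04. The 2 tested seed storage and oil body genes both had 0.06, and the clock gene GI had −0.29. No flower or vascular marker had a named probe set. The summed photosynthesis signal was 9063 to 11330 on the 3 arrays and 8909 to 14980 on the others, and the summed seed signal was 27.6 to 34.1 against 12.5 to 50.4. Of the guard cell and epidermis markers, AT1G22690 fell lowest, with a difference of −1.25 and the 3 arrays below all 15.

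Tests of treatment, title run and replicate number were made on the 15 arrays that did not define the members, with the limma fit over all 17059 tested probe sets and Benjamini-Hochberg adjusted p. The rule still caps these 15 arrays, since it takes only genes whose 15 levels stay under the lowest of the 3. Arrays 40, 43 and 52 also all belong to later title runs, so the choice of members may favour genes that are lower in the first runs. With SA against silwet, 8 arrays against 7, no member passed in either direction, and neither did any other probe set (0.0% higher, 0.0% lower). This fit holds no term for the title run, so differences between runs count as scatter. With title run as a term, added after the data were seen, still no probe set passed, and 3 of 120 members and 371 of 17059 probe sets had an unadjusted limma p under 0.05. In the fit without that term, 0 of 120 members and 177 of 17059 probe sets had an unadjusted limma p under 0.05. A Wilcoxon test called 0 after adjustment. With 8 arrays against 7 its smallest possible p is limited, so a probe set could pass only if many others reached it too. That 0 therefore adds little. The values that follow are from the limma fit without the title run. The members' differences had a median of −0.02 and ran from −0.34 to 0.78, with 49 above 0 and 71 below. For DI21 the difference was 0.16 with a standard error of 0.10, for AT2G37870 0.07 with a standard error of 0.37, and for XERICO −0.20 with a standard error of 0.26. All had an adjusted limma p of 1.0.

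Between the first runs of the treatments, SA arrays 46 to 48 and silwet arrays 37 to 39, 3 members were lower with SA and none higher (background 3.19% lower, 2.67% higher). The members' median difference was −0.25, against −0.05 over all tested probe sets. AT4G35320 had 4.93, 4.20 and 4.95 on SA arrays 46, 47 and 48 and 5.85, 6.02 and 5.61 on silwet arrays 37, 38 and 39, without overlap. Its difference was −1.13 with a standard error of 0.20 (limma adjusted p = 0.00668). The others were the unnamed 247498_at with −0.89 (adjusted p = 0.0407) and 245628_at with −0.84 (adjusted p = 0.0303). With replicate number as a block, 10 members were lower and 0 higher, where 5.48% and 4.53% of all probe sets were. The count was 14 without the arrays of replicate 1, and 0 without those of replicate 2 or of replicate 3. The share of all probe sets called without a replicate is not given.

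Within silwet, arrays 37 to 39 were compared with the later arrays 41, 42, 44 and 45, and 1 member was higher in the first run and 2 lower (background 2.1% higher, 1.42% lower). AT3G02480, the late embryogenesis abundant gene, had 4.83, 4.12 and 4.06 on the first arrays and 6.0, 6.04, 5.67 and 5.15 on the later ones, without overlap. Its difference was −1.38 with a standard error of 0.28 (limma adjusted p = 0.0142). The other lower member was 247095_at with −1.10 (adjusted p = 0.0223). NAI2 was higher in the first run by 0.65 (adjusted p = 0.0477), with 5.51, 5.09 and 5.79 against 4.68, 4.92, 5.0 and 4.67, and with the replicate block its adjusted p was 0.0656. The call of NAI2 held in only 2 of 8 alternative settings with all replicates, where AT3G02480 and 247095_at held in 8. The later silwet arrays hold no array of replicate number 1, and with the block 17 members were lower and 0 higher, where 2.12% and 3.07% of all probe sets were. Without the arrays of replicate 2 or of replicate 3 the count of calls was 0, and the share of all probe sets is not given.

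Within SA, the first run differed more. Of the 120 members 34 (28.3%) were lower on arrays 46 to 48 than on the later arrays 49, 50, 51, 53 and 54, and 2 were higher (1.67%). Over all tested probe sets 19.0% were lower and 16.2% higher, so the members' calls ran mostly one way where those of all probe sets ran both ways. The choice of members by arrays of later runs may add to this tilt, and its part was not tested. Their median difference was −0.39, against −0.05 over all tested. With the replicate block 60 members were lower and 3 higher, where 21.8% and 17.7% of all probe sets were. The total count was 14 without the arrays of replicate 2 and 21 without those of replicate 3, with the share of all probe sets not given.

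The largest drop was in AT4G35320, at 4.93, 4.20 and 4.95 on the first SA arrays and 6.59, 6.35, 6.50, 6.40 and 6.69 on the later ones. The difference of −1.82, with a standard error of 0.18, is 3.53-fold (limma adjusted p = 3.98e-06). The groups did not overlap, and the first run was low in all 3 arrays. The unnamed 250408_at, at 4.98, 4.85 and 4.79 against 6.07, 6.12, 5.85, 5.97 and 5.84, had a difference of −1.08 (adjusted p = 6.55e-06). Next came 247498_at with −1.47 and 245427_at with −1.30 (adjusted p = 9.26e-05 and 0.000107). Both members that were higher in the first SA run had modest differences, 247957_at with 0.66 (adjusted p = 0.00346) and AT2G38800 with 0.69 (adjusted p = 0.0197).

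By function, to be read against the 19.0% of all tested probe sets that were lower and the 16.2% that were higher, 1 of the 3 late embryogenesis abundant members was lower in the first SA run, AT3G02480 with −1.02 (limma adjusted p = 0.00735, or 0.164 without replicate 3). Of the 5 lipid transfer family members 1 was lower, AT1G62510 with −0.69 (adjusted p = 0.00519, or 0.238 and 0.092 without replicate 2 and 3). AT2G37870 had −0.91 with a standard error of 0.44 and did not pass (adjusted p = 0.119). Of the 8 regulators 3 were lower: AT1G01250 with −1.12 (adjusted p = 0.000696, or 0.0506 without replicate 2), AT3G13672 with −0.71 (adjusted p = 0.00303, or 0.0744 and 0.0639 without replicate 2 and 3) and XERICO. XERICO had 8.38, 6.68 and 6.78 on the first SA arrays and 8.27, 7.94, 8.25, 8.36 and 7.89 on the later ones, so array 46 lay at the top of all 8 and the groups overlapped. Its difference was −0.86 with a standard error of 0.31 (adjusted p = 0.0448), and its adjusted p was 0.5 without replicate 2 and 0.316 without replicate 3. Of the 6 carbohydrate and transport members only UGT85A5 was lower, with −0.75 (adjusted p = 0.00106, or 0.089 without replicate 2), and of the 4 wall members only AT4G18280, with −0.40. Of the other 39 named members 14 were lower and 1 higher. Of the list genes tested, 4 of 9 late embryogenesis abundant and 5 of 8 lipid transfer loci were lower in the first SA run, and 1 and 0 were higher. Without replicate 2 the lower counts were 2 and 4, and without replicate 3 they were 1 and 4. The drop was not particular to these lists, since 4 of 5 photosynthesis genes were also lower and 0 higher. Of 5 senescence genes 2 were lower and 3 higher.

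Whether this difference between runs was itself unlike in the 2 treatments was tested as an interaction, added after the data were seen. For 5 members the first run stood lower against the later runs in SA than in silwet, and for 0 higher (background 3.6% lower, 3.36% higher). They were AT4G35320 with −1.37 and a standard error of 0.26 (limma adjusted p = 0.00818), 245628_at with −1.36, 247498_at with −1.37, UGT85A5 with −0.86 and 250408_at with −0.67. For AT4G35320 the silwet runs had mean levels of 5.82 ± 0.21 (SD, n = 3), 6.26 ± 0.35 (n = 2) and 6.30 ± 0.11 (n = 2), and the SA runs 4.69 ± 0.43 (n = 3), 6.48 ± 0.12 (n = 3) and 6.54 ± 0.21 (n = 2). With the replicate block the interaction called 10 members lower and 1 higher. Without replicate 1 it called 16, and without replicate 2 or 3 it called 0. For these fits the share of all probe sets called is not given. The counts are therefore not read as a result about the members. AT3G02480 and AT1G01250 were not called, so a difference between treatments was not shown for them.

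**Figure D4:**
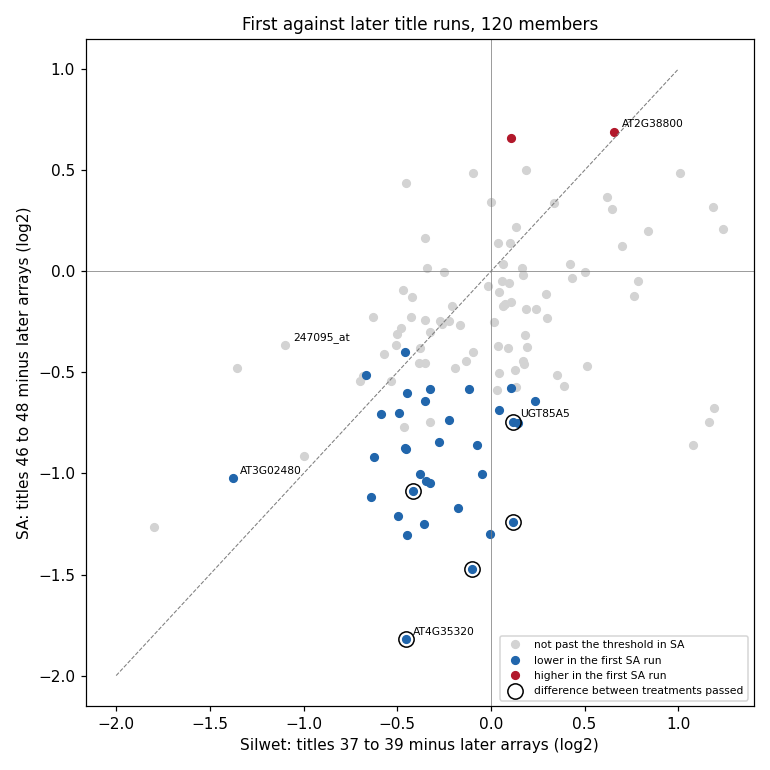
Log2 difference between the first and the later title runs for the 120 members, in silwet (horizontal axis, arrays 37 to 39 minus 41, 42, 44 and 45) and in SA (vertical axis, arrays 46 to 48 minus 49, 50, 51, 53 and 54), with the dashed line marking equal differences. Blue points (34) and red points (2) passed the limma test in SA, rings mark the 5 members whose interaction passed, and AT4G35320 lies lowest at −1.82 in SA.

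Since arrays 40, 43 and 52 all carry replicate number 1, the 3 other arrays of that number, 37, 46 and 49, were compared with the 12 arrays of numbers 2 and 3, with treatment as a covariate. No member passed, and no other probe set did (0.0% higher, 0.0% lower), with a smallest adjusted limma p among members of 0.418. At an unadjusted p under 0.05, 36 of 120 members were called, all of them higher, against 1195 of 17059 probe sets, of which 827 were higher and 368 lower. The difference was above 0 in 101 of 120 members and in 9906 of 17059 tested probe sets, and its median was 0.32 against 0.04. AT1G16850, of unknown function, had 6.65, 6.91 and 6.23 on arrays 37, 46 and 49, a mean of 6.60 ± 0.34 (SD, n = 3), and the 12 others had a mean of 5.21 ± 0.52 (SD, n = 12). Its difference was 1.43 with a standard error of 0.29 (limma adjusted p = 0.418). APL4 had 0.61, LEA4-5 0.44 and XERICO 0.64, while AT3G02480 had 0.06, AT1G01250 −0.04 and AT2G37870 −0.27, all without passing. This fit too holds no term for the title run, although 2 of the 3 arrays are from first runs. With the 6 means of treatment and title run in its place, added after the data were seen, 1 member was higher and none lower (background 0.0234% higher, 0.0% lower). It was AT2G41190, of the amino acid transporter family, with a difference of 0.96 and a standard error of 0.14 (limma adjusted p = 0.0461). It had 6.30, 6.37 and 6.68 on arrays 37, 46 and 49, each above the other arrays of its run, which had 5.61 and 5.64, 5.07 and 5.22, and 5.47 and 5.92. At an unadjusted p under 0.05 this fit called 58 of 120 members, all higher, and 1811 of 17059 probe sets, 1198 higher and 613 lower. The members' median difference was 0.41, against 0.04 over all tested, and AT1G16850 had 1.59 with a standard error of 0.25 (adjusted p = 0.0588). One of the 3 arrays was the next highest after 40, 43 and 52 in 56 of the 120 members. That share was not computed over all probe sets, and these 3 are among 15 arrays that could come next.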

How the data were processed

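The deposited table holds 22810 rows for 18 Affymetrix ATH1 arrays as linear signal intensity. Per the submitters' processing notes the software was MAS5, and its version is not stated there. The deposited intensity values had a trimmed mean of about 100.01 on every array, so arrays were scaled to a common mean, which leaves ratios between arrays relative. The number of arrays limits the precision. Signals were used as deposited, 64 control probe sets were left out, and log2(signal + 16) was taken, which shrinks fold changes of dim genes. Tests used limma 3.58.1 (R 4.3.3, lmFit and eBayes with trend) over the 17059 probe sets whose mean signal over 18 arrays was at or above the 25th percentile, with Benjamini-Hochberg adjustment at 0.05. The run comparisons fitted 6 means of treatment and title run over 15 arrays. Figures were drawn with matplotlib 3.10.9.

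Genes were named from the platform annotation, updated through the RefSeq gene table of TAIR10.1: 13513 probe sets had 1 gene, 503 several and 8730 none. Named are the 25 members with 1 gene and the largest difference, members of the stress lists, up to 4 members per test and direction with the smallest adjusted p, members next to the limits, and others as examples chosen after their values were seen. The members, role groups and gene lists were chosen with earlier results of these data known. Sequences and promoter motifs were not used here.

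Same-numbered arrays of SA and silwet deviated together over all tested probe sets (r = 0.757, 0.563 and 0.645 for numbers 1, 2 and 3, against −0.53 to −0.02 for unlike numbers). Replicate number was therefore taken as a pairing found in the data. The main fits of treatment and title run hold no term for it. Fits with it as a block are given where they change a count. Alternatives were other offsets, quantile normalization, no filter, no variance trend, array weights, the block and leaving out each replicate number. The fit was checked on simulated data.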

Additional observations from a re-analysis of the deposited data

Results flagged for a closer look

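Within a treatment, 6 of 60 groups of arrays over 30 measures held an array that Dixon's test set apart from the rest, where chance gives about 1 in 20. For the lipid transfer family gene AT2G37870, SA array 53 stood at 7.73 against 5.21 to 6.13 on the 7 others, and for AT5G15190 the same array stood at 6.57 against 5.28 to 5.82. For the lipid transfer family gene AT3G53980, silwet array 39 stood low at 4.76 against 5.90 to 6.56 on the 6 others, and for the lectin EULS3 silwet array 38 stood low at 6.28 against 6.73 to 7.06. Array 41 had the lowest median signal of the silwet arrays, 27.38 against 32.3 to 35.7. Array 45 had the highest log2 ratio of 3′ to 5′ actin probes, 2.68 against 1.45 to 2.07.

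For 5 members the first against the later run differed between SA and silwet by the interaction test: AT4G35320 by −1.37, 245628_at by −1.36, 247498_at by −1.37, UGT85A5 by −0.86 and 250408_at by −0.67 on the log2(signal + 16) scale.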

How the results depend on the processing

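The number of members depended on the scale and limits of the rule: 230 with an offset of 1 (all 120 among them), 43 with an offset of 64, 494 with a minimum difference of 0.5, 39 with 1.5, and 337 with SA arrays alone. It was 117 after quantile normalization, 114 of them shared. SA against silwet over 15 arrays called 0 members under every alternative. Counts of called members that moved by over 1.5 times follow, and the cause was not tested. They stand without the share of all probe sets called in the same fit, so they do not show whether only the members moved. For SA 46 to 48 against silwet 37 to 39, from 3: quantile normalization 1, no filter 1, array weights 20, replicate block 10, leaving out replicates 0 to 14. For the silwet runs, from 3: quantile normalization 6, array weights 7, replicate block 17, leaving out replicates 0 to 4. For the SA runs, from 36: array weights 57, replicate block 63, leaving out replicates 14 to 49. For the interaction, from 5: array weights 19, replicate block 11, leaving out replicates 0 to 16. For replicate number 1, from 0: array weights 46, a fit whose weights did not converge, and 1 with title run as a term. No result turned its direction. For single called members, alternative values kept and lost the call 335 and 57 times in the SA runs, 20 and 12 in the silwet runs, 21 and 12 in SA against silwet first runs, and 43 and 12 in the interaction.

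Most named members have few list partners to compare with, because many loci have no probe set with 1 gene. Values near 4 are close to no signal, so small differences there are not resolved. A low title code and being array 40, 43 or 52 cannot be told apart.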

Other observations

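In the reverse direction, 68 of 22746 probe sets had arrays 40, 43 and 52 below all 15 others with a mean at least 1 lower, and 400 were below all 15 at any difference, against 678 above. A further 49 probe sets had a mean difference of at least 1 on the 3 arrays but overlapped the other 15.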
